A study of Mus musculus with 8 samples.

Results

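The genes described are 10 components and outputs of the circadian clock, Per1, Per2, Per3, Cry1, Clock, Npas2, Nr1d1, Nr1d2, Dbp and Tef, chosen by name from the 21434 genes of an RNA sequencing table of mouse pancreas. Each of the 10 names matched a single entry, and all 10 were among the 12820 genes that had enough counts to be tested. The table covers 4 Bach2WT and 4 Bach2KO mice, all untreated and 18 weeks old, with 2 females (mice 1 and 2) and 2 males (mice 3 and 4) per genotype. Bach2KO mice were homozygous for the constitutive, whole-body allele of C57BL/6N-Bach2tm1b(EUCOMM)Wtsi/leg, and Bach2WT mice were wild type on the same background. Bach2 is a transcriptional repressor of the immune system, and the knockout animals carried a progressive lung disease. The mice lived on a 12-h light/dark cycle and were killed with an overdose of ketamine and xylazine. The hour at which each pancreas was taken, and which colony each mouse came from, are not given in the sources used here. The question was whether the mice shared a clock phase and whether the genotypes differed in these genes.

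In the mammalian clock the transcription factors Clock or Npas2 pair with Bmal1 (Arntl in the table) and switch on genes through E-boxes, among them the Per and Cry genes, the nuclear receptors Nr1d1 and Nr1d2 (REV-ERB alpha and beta) and the output factors Dbp and Tef. The Per and Cry proteins shut this activity off, and Nr1d1 and Nr1d2 repress Arntl and Npas2, so that the activators and the outputs peak at opposite times of the day. Such oscillations run in most organs, pancreatic exocrine cells and islets included, and they are set by light, feeding and glucocorticoids, with Per1 and Per2 also answering directly to hormones and stress.

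The libraries held 72299745 to 172029360 counts on genes, so that 3 counts, taken as the limit that a count of 0 allows, correspond to 0.0155 to 0.0432 CPM, which are counts scaled to a common library total. This limit covers counting error only and takes each count as independent. Among larger counts, 52.83% to 56.07% were even in each library. If both reads of a pair were counted, the counts would not be independent and the limit would lie higher. A pair of libraries stood apart by missing genes. In Bach2KO mouse 3, 75 genes were at 0 that held at least 10 counts in each of the other mice, and in Bach2WT mouse 4 there were 53, against 1 to 13 in the others. Counts on Bach2 itself ranged from 3 to 16 in the Bach2KO mice and from 4 to 31 in the Bach2WT mice. They were too few to be tested, and as totals over the whole gene they do not check the labels. The acinar markers Prss2, Cpa1, Cel, Ctrb1, Pnlip and Cela3b, which code for digestive enzymes, together took 363980 to 538140 CPM in every mouse, so the defining transcripts of the labelled tissue were present. Of these, 4 of 6 were lower in Bach2KO mice at an unadjusted p under 0.05, as were 11 of a wider list of 32 digestive enzymes, against 3.56% of all tested genes. None passed the adjusted threshold in edgeR, and Cpa1 did in DESeq2 (Benjamini-Hochberg adjusted p = 0.0482). In bulk tissue, fewer cells of a type and less RNA per cell cannot be told apart.

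The promoters are shown because clock factors reach their genes through short motifs, and a match is a description and not a binding site. Promoter sequence was found in RefSeq (GRCm38.p6) for 9 of the 10 genes, in 13 windows of 250 bases before an annotated start, and Per2 was not among them. The windows were searched on both strands for the E-box CACGTG, the D-box TTATGTAA or TTACGTAA (bound by Dbp and Tef), the core TAGGTCA of the element shared by ROR and REV-ERB receptors, and the cyclic AMP element TGACGTCA. In all, 5 windows of 4 genes held a match. An E-box stood 166 bases before the start of Per1, 60 before that of Cry1, and 127 and 138 before the 2 starts of Tef. The Per3 window held 2 D-boxes, 205 and 158 bases before the start. No match was found in the windows of Dbp, Nr1d1, Nr1d2, Clock, Npas2 and Arntl, which says only that these letters are not in those 250 bases. Of 32851 promoter windows in the table, 6.02% held the E-box, 0.931% the D-box, 2.23% the receptor core and 1.55% the cyclic AMP element. The windows that held a match are given 5′ to 3′ with the matched letters in capitals, followed by that of Dbp, the gene against which the others are compared.
Per1, chr11:69098699-69098948, plus strand: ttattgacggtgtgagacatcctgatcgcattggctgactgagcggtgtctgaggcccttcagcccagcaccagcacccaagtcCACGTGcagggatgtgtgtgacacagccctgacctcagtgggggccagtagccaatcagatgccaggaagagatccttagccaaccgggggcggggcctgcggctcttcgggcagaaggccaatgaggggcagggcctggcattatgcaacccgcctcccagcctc
Per3, chr4:151044666-151044915, minus strand: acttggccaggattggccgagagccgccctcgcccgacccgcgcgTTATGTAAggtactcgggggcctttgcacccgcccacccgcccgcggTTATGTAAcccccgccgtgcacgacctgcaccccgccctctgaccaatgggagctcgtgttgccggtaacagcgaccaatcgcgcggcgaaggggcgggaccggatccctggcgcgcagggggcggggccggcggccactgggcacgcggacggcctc
Cry1, chr10:85185055-85185304, minus strand: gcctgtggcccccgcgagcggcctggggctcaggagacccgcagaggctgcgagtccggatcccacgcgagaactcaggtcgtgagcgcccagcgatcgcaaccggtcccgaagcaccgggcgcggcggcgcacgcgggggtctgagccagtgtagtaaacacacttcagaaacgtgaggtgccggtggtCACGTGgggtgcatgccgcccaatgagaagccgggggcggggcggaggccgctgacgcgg
Tef, first start, chr15:81802423-81802672, plus strand: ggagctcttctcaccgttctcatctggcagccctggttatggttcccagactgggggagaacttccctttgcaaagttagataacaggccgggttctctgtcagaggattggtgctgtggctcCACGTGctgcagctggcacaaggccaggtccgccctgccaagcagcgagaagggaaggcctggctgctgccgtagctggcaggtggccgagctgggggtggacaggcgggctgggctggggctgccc
Tef, other start, chr15:81811164-81811413, plus strand: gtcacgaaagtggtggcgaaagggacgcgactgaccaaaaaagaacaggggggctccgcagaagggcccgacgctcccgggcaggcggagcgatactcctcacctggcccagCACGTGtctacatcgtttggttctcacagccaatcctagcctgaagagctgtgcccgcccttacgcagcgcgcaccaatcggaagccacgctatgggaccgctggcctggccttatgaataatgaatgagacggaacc
Dbp, chr7:45704997-45705246, plus strand: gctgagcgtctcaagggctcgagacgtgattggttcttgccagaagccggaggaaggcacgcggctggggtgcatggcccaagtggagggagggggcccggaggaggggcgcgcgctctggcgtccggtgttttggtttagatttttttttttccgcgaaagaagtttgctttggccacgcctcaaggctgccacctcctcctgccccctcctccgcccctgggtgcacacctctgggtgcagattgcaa

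Each mouse had its own pattern of clock gene expression, and the genotypes overlapped for each of the 10 genes. Bach2WT mouse 1 had the highest level of 6 of the 10 genes, Bach2KO mouse 1 that of 3 (Per1, Clock and Npas2), and Bach2WT mouse 3 that of Nr1d1. The highest level exceeded the lowest by 57.4-fold for Dbp, 31.3-fold for Per2, 29.0-fold for Per1, 20.1-fold for Nr1d2, 10.8-fold for Tef and 7.32-fold for Nr1d1. For the genes with a count of 0 in a mouse, the highest level was set against the 3-count limit of that mouse. It was 51.6-fold above this limit for Cry1, 24.4-fold for Per3 and 12.6-fold for Npas2. Clock was the exception, with a 1.99-fold range over the 8 mice.

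**Figure D1:**
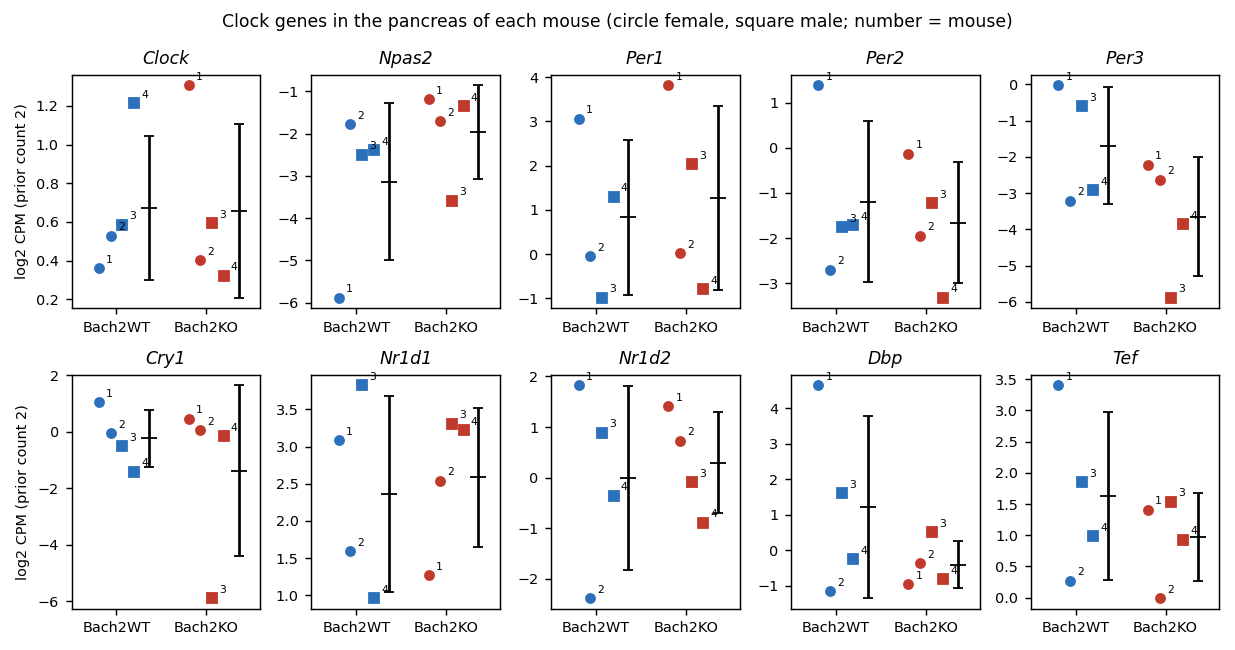
Level of each clock gene per mouse as log2 CPM (y axis, prior count of 2) for Bach2WT (blue) and Bach2KO (red) mice, with circles for females, squares for males and the mouse number beside each point. The black bars give mean and SD (n = 4 mice), and the genotypes overlap for all 10 genes, while Bach2WT mouse 1 is the highest Bach2WT mouse for Per1, Per2, Per3, Cry1, Nr1d2, Dbp and Tef.

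The activators come first. Clock (ENSMUSG00000029238, chr5:76357715-76452639 on the minus strand of GRCm39, the build of all gene positions here) codes for a histone acetylating partner of Bmal1. Its levels were 2.46, 1.30, 1.49 and 1.23 CPM in Bach2KO mice 1 to 4 and 1.27, 1.42, 1.48 and 2.30 CPM in Bach2WT mice 1 to 4. The values of the genotypes interleaved, and the log2 fold change of Bach2KO over Bach2WT was 0.01 with a standard error of 0.30 (edgeR quasi-likelihood test, Benjamini-Hochberg adjusted p = 0.998).

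Npas2 (ENSMUSG00000026077, chr1:39232812-39402317, plus strand) can take the place of Clock. It measured 0.420, 0.290, 0.0660 and 0.373 CPM in Bach2KO mice 1 to 4 and 0, 0.274, 0.160 and 0.173 CPM in Bach2WT mice 1 to 4. No count fell on Npas2 in Bach2WT mouse 1, although that library held 81648148 counts, and the next lowest mouse was Bach2KO mouse 3. With a log2 fold change of 0.92 (SE 0.92, edgeR adjusted p = 0.893), the genotypes differed by no more than the error.

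Arntl (ENSMUSG00000055116, chr7:112806672-112913333, plus strand), the gene of their partner Bmal1, is not one of the 10 but completes the pair. It measured 2.25, 0.954, 0.383 and 1.57 CPM in the Bach2KO mice and 0.178, 0.739, 0.627 and 0.576 CPM in the Bach2WT mice. Bach2WT mouse 1 was again the lowest, with 16 counts, and Bach2KO mouse 3 lay below 3 of the 4 Bach2WT mice. The log2 fold change of 1.29 (SE 0.53) had an unadjusted p of 0.0291 and an adjusted p of 0.636 in edgeR, and the exact permutation test of CPM gave p = 0.143.

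Of the repressors, Per1 (ENSMUSG00000020893, chr11:68986043-69000786, plus strand) is an early responder to light, hormones and stress. Its levels were 14.1, 1.00, 4.08 and 0.560 CPM in Bach2KO mice 1 to 4 and 8.33, 0.952, 0.487 and 2.45 CPM in Bach2WT mice 1 to 4. Both genotypes thus held a mouse with high Per1 and a mouse at or below 0.560 CPM. Between genotypes the log2 fold change was 0.71 (SE 0.91, edgeR adjusted p = 0.928), and it was -0.71 without Bach2KO mouse 1 and 1.97 without Bach2WT mouse 1.

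Per2 (ENSMUSG00000055866, chr1:91343704-91387046, minus strand), the Per gene whose loss most disturbs behavioural rhythms in mice, measured 0.896, 0.241, 0.409 and 0.0829 CPM in the Bach2KO mice and 2.60, 0.137, 0.278 and 0.288 CPM in the Bach2WT mice. The 3 mice with the most Per2, Bach2WT mouse 1 and Bach2KO mice 1 and 3, were also the 3 with the most Per1. With all mice the genotypes differed by a log2 fold change of -1.01 (SE 0.88, edgeR adjusted p = 0.859), which was 0.81 without Bach2WT mouse 1.

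Per3 (ENSMUSG00000028957, chr4:151088109-151129122, minus strand) follows the output factors through its D-boxes in textbook descriptions, and its promoter window holds the pair shown above. It was counted 32, 12, 0 and 10 times in the Bach2KO mice and 87, 12, 92 and 8 times in the Bach2WT mice, or 0.198, 0.145, 0 and 0.0518 CPM and 0.966, 0.0914, 0.641 and 0.115 CPM. Bach2WT mice 1 and 3 stood above the other 6 mice. The log2 fold change of -2.17 (SE 0.99) had an unadjusted p of 0.0467 and an adjusted p of 0.663 in edgeR, and the exact permutation p was 0.2. Without Bach2WT mouse 1 the log2 fold change was -1.50. Camta1, whose annotated span holds the whole of Per3 on the same strand, had 544 counts in all against 253 on Per3, and it was lowest in Bach2KO mouse 2 and highest in Bach2KO mouse 3.

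Cry1 (ENSMUSG00000020038, chr10:84967564-85020928, minus strand), the late and strongest repressor of the loop, measured 1.37, 1.03, 0 and 0.886 CPM in the Bach2KO mice and 2.04, 0.945, 0.689 and 0.360 CPM in the Bach2WT mice. It had no count in Bach2KO mouse 3, one of the libraries with missing genes, and at least 25 counts in each of the other mice. Its log2 fold change was -0.29 (SE 0.80, edgeR adjusted p = 0.969), and it was 0.10 without Bach2KO mouse 3 and 0.31 without Bach2WT mouse 1.

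Nr1d1 (ENSMUSG00000020889, chr11:98658758-98666159, minus strand) had the highest level per length of the 10 genes. It measured 2.40, 5.80, 9.87 and 9.30 CPM in the Bach2KO mice and 8.46, 2.99, 14.1 and 1.93 CPM in the Bach2WT mice. The genotypes spanned nearly the same range, and the log2 fold change was -0.01 (SE 0.54, edgeR adjusted p = 0.998). Nr1d1 overlaps Thra, the thyroid hormone receptor alpha gene on the opposite strand, over 1075 bases, and whether the counting used strand is not given in the sources used here. Thra ranged from 4.11 to 6.75 CPM over the mice, a 1.64-fold range, and it was lowest in Bach2KO mouse 1 and highest in Bach2WT mouse 4, which held the least Nr1d1.

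Nr1d2 (ENSMUSG00000021775, chr14:4230569-4265642, plus strand), the second REV-ERB gene, measured 2.64, 1.64, 0.925 and 0.523 CPM in the Bach2KO mice and 3.52, 0.175, 1.84 and 0.763 CPM in the Bach2WT mice. It did not follow Nr1d1 in every mouse: Bach2KO mouse 1 was second highest for Nr1d2 and second lowest for Nr1d1. Its log2 fold change was -0.13 (SE 0.68, edgeR adjusted p = 0.983) with all mice and 0.63 without Bach2WT mouse 1.

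Among the outputs, Dbp (ENSMUSG00000059824, chr7:45354512-45359627, plus strand) codes for the D-box binding factor that carries the clock into the expression of metabolic genes. It was counted 81, 63, 107 and 106 times in the Bach2KO mice and 2245, 57, 435 and 57 times in the Bach2WT mice, which gave 0.500, 0.761, 1.41 and 0.549 CPM and 24.9, 0.434, 3.03 and 0.821 CPM. Bach2WT mice 1 and 3 stood above all Bach2KO mice, and Bach2WT mouse 2 stood below all of them. The log2 fold change of -3.21 (SE 0.99) had an unadjusted p of 0.00632 and an adjusted p of 0.531 in edgeR, and the exact permutation p was 0.314. Without Bach2WT mouse 1 the log2 fold change was -0.85 (edgeR adjusted p = 0.696). Sphk2, which overlaps Dbp on the opposite strand over 737 bases, had 5365 counts in all against 3151 on Dbp. It had its lowest level, 2.15 CPM, in Bach2WT mouse 1, where Dbp was highest. Its highest level, 8.51 CPM, was in Bach2WT mouse 3, the second highest mouse for Dbp.

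Tef (ENSMUSG00000022389, chr15:81686622-81711064, plus strand) codes for a relative of Dbp that binds the same D-box. Its levels were 2.64, 0.978, 2.89 and 1.89 CPM in the Bach2KO mice and 10.5, 1.19, 3.60 and 1.96 CPM in the Bach2WT mice. The 3 highest mice, Bach2WT mice 1 and 3 and Bach2KO mouse 3, came in the same order as for Dbp. For Tef the log2 fold change was -1.04 (SE 0.55, edgeR adjusted p = 0.722) with all mice and -0.10 without Bach2WT mouse 1.

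Over the 10 genes, none passed an adjusted p of 0.05 for the genotype in edgeR, where 1 gene of 12820 (0.0078%) did, and none did in DESeq2. At an unadjusted p under 0.05, Dbp and Per3 were lower in Bach2KO mice and no clock gene of the 10 was higher, against 3.56% of all tested genes lower and 3.9% higher. DESeq2, fitted to all 21434 genes of the table, likewise put 2 of the 10 past an unadjusted p of 0.05. It put 1398 of all those genes there, while edgeR put 957 of 12820 there, so these totals are not over the same genes. DESeq2 put 75 genes past the adjusted threshold. For none of the 10 did the CPM of the genotypes lie apart, which they did for 4.49% of tested genes. The median log2 fold change of the 10 was -0.21, with 3 above 0, and that of all tested genes was 0.048. Without Bach2WT mouse 1, no gene of the 10 had an unadjusted p under 0.05, the median was 0.20 and 6 lay above 0. With 4 mice per genotype, 0.0286 is the smallest two-sided p that the exact permutation test can give.

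**Figure D2:**
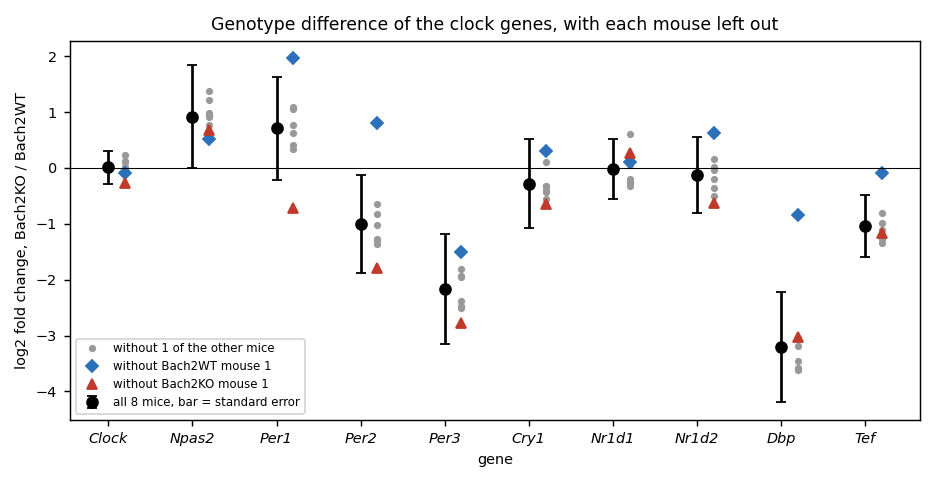
Log2 fold change of Bach2KO over Bach2WT (y axis) for each clock gene (x axis) from the edgeR fit with all 8 mice (black, bar = standard error) and with each mouse left out in turn. Without Bach2WT mouse 1 (blue diamonds) Dbp lies at -0.85 in place of -3.21, Tef at -0.10 in place of -1.04 and Per2 at 0.81 in place of -1.01, while without Bach2KO mouse 1 (red triangles) Per1 lies at -0.71 in place of 0.71.

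The sexes were not distinguished by these genes either. With sex as a term beside genotype, no gene of the 10 passed the threshold, and their adjusted p-values in edgeR ranged from 0.890 to 0.998, where 4 of all tested genes (0.0312%) passed. The largest male-against-female differences were log2 fold changes of -1.78 for Per2 and -1.71 for Per1. In the interaction of sex and genotype, for which 0% of tested genes passed, the smallest p among the 10 was that of Dbp, with 0.069 unadjusted and 0.835 adjusted in edgeR. Each sex held 2 mice per genotype.

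With all mice, those of the same genotype differed more in most of these genes than in most other genes. The SD of log2 CPM within genotype was 2.25 for Cry1, 1.92 for Per1 and 1.87 for Dbp, wider than for 99.7%, 98.9% and 98.6% of the tested genes. For 7 of the 10 it was wider than for 90% of tested genes. Since low genes vary more, the edgeR dispersion was also set against its trend at the same expression level. Per1 and Dbp lay 10.0-fold and 9.89-fold above the trend, higher than 99.9% of tested genes, and Nr1d1 4.62-fold, higher than 99.5%. Cry1, Tef, Nr1d2 and Per2 followed at 3.75-fold, 3.55-fold, 3.53-fold and 2.91-fold. Per3, with few counts, lay 1.70-fold above the trend and Npas2 1.29-fold. Clock, at 0.87-fold, lay near the middle of all genes, higher than 53.2% of them. Single mice carried part of this spread. Without Bach2WT mouse 1 the SD was 1.03 for Dbp, 0.74 for Tef, 1.10 for Per2 and 0.892 for Npas2, and 3 of the 10 were wider than 90% of tested genes. Without Bach2KO mouse 3 the SD of Cry1 was 0.814, wider than for 77.5% of genes. Relative to the trend, without Bach2WT mouse 1 Dbp lay 1.95-fold above it, Tef 1.59-fold and Per2 1.17-fold, and Npas2 was at 0.80-fold, whereas Per1 stayed at 7.61-fold and Nr1d1 at 5.02-fold. Without Bach2KO mouse 1 Per1 lay 6.28-fold above it, and without Bach2KO mouse 3 Cry1 lay 1.44-fold above it. Without Bach2WT mouse 2 Nr1d2 lay 2.31-fold above it. These ratios are a description, and no test was made of them.

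**Figure D3:**
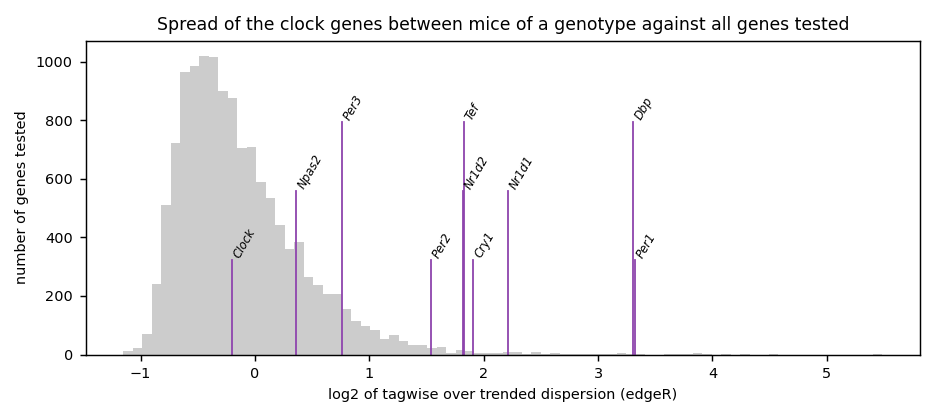
Number of tested genes (y axis) by the log2 ratio of a gene's own edgeR dispersion to the trend at its expression level (x axis), with the 10 clock genes marked by lines whose height has no meaning. Per1 and Dbp lie far to the right at 10.0-fold and 9.89-fold, and Clock lies inside the bulk of genes at 0.87-fold.

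To ask about phase, the genes were compared with each other over the mice. Dbp was set against the other 9 genes and Arntl over the 8 mice, 10 relations in all, with Benjamini-Hochberg adjustment over them. Tef varied with Dbp (Pearson r = 0.89, exact permutation p = 0.00618, adjusted p = 0.0345; Spearman rho = 0.76, exact permutation p = 0.0368). Npas2 varied against it (r = -0.93, exact permutation p = 0.00853, adjusted p = 0.0345; rho = -0.83, exact permutation p = 0.0154). Arntl varied against it as well (r = -0.81, exact permutation p = 0.0103, adjusted p = 0.0345; rho = -0.79, exact permutation p = 0.0279). In rank terms, the smallest adjusted p of the 10 relations was 0.123.

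The remaining relations did not pass the adjustment. Pearson r with Dbp was 0.73 for Per2 (exact permutation p = 0.0446, adjusted p = 0.111), 0.61 for Nr1d2, 0.61 for Per3, 0.51 for Nr1d1, -0.35 for Clock, 0.29 for Per1 and 0.12 for Cry1, with adjusted p-values from 0.209 to 0.738 for these last 6 in the exact permutation tests. Without Bach2WT mice 1 and 3, the 2 mice farthest from the median of Dbp, r was -0.89 for Npas2 (adjusted p = 0.125 in the exact permutation test), -0.72 for Arntl (adjusted p = 0.295) and 0.38 for Tef (adjusted p = 0.766). Leaving out the extreme mice of Dbp narrows its range, which by itself can weaken a correlation, so what these relations rested on cannot be told. Over the remaining 6 mice none of the 10 relations passed the adjustment, and those with Tef, Npas2 and Arntl kept their sign. Per3 and Cry1 turned to -0.71 and -0.89 without Bach2WT mice 1 and 3. In Bach2KO mouse 3, the highest of the 6 for Dbp, both genes had a count of 0, and its part in these values was not tested. After centring on each genotype's mean, r was -0.91 for Npas2 (adjusted p = 0.0174, exact permutation), -0.76 for Arntl (adjusted p = 0.0347) and 0.88 for Tef (adjusted p = 0.104).

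**Figure D4:**
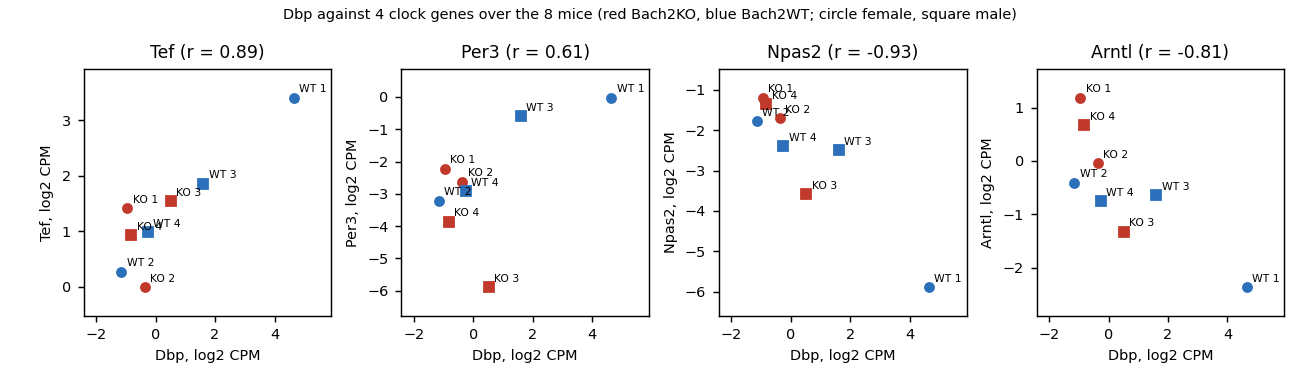
Log2 CPM of Dbp (x axis) against that of Tef, Per3, Npas2 and Arntl (y axes) in the 8 mice, red for Bach2KO and blue for Bach2WT, circles for females and squares for males. Tef runs with Dbp (r = 0.89) and Npas2 and Arntl run against it (r = -0.93 and -0.81), with Bach2WT mouse 1 alone at the far end of each plot.

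A single value per mouse was made from genes that peak at opposite times, as the mean log2 CPM of Nr1d1, Nr1d2, Dbp, Tef and Per3 minus that of Arntl, Npas2, Clock and Cry1. It was -0.26, 0.38, 2.43 and -0.16 in Bach2KO mice 1 to 4 and 4.30, -0.55, 2.28 and 0.52 in Bach2WT mice 1 to 4. Bach2WT mouse 1, Bach2KO mouse 3 and Bach2WT mouse 3 thus lay highest, and the other 5 mice lay within -0.55 and 0.52. Cry1, a repressor that peaks late and is grouped here with the activators, was at 0 in Bach2KO mouse 3. Without Cry1 that mouse had a value of 1.32, Bach2WT mice 1 and 3 had 5.21 and 2.36, and the other 5 lay within -0.42 and 0.50. The log2 difference of Dbp and Arntl leaves Cry1 out, but both genes are part of the single value, so it is not a separate check. It was highest in the same 3 mice, which were also the highest 3 for Dbp. It was 7.0 in Bach2WT mouse 1, 2.24 in Bach2WT mouse 3 and 1.84 in Bach2KO mouse 3. Its lowest values were -2.14 in Bach2KO mouse 1 and -1.49 in Bach2KO mouse 4. Both genotypes were found on both sides. The level of the output genes relative to Arntl thus differed between mice, and differences in the hour of death, in the strength of the rhythm and in the cells sampled cannot be told apart here.

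**Figure D5:**
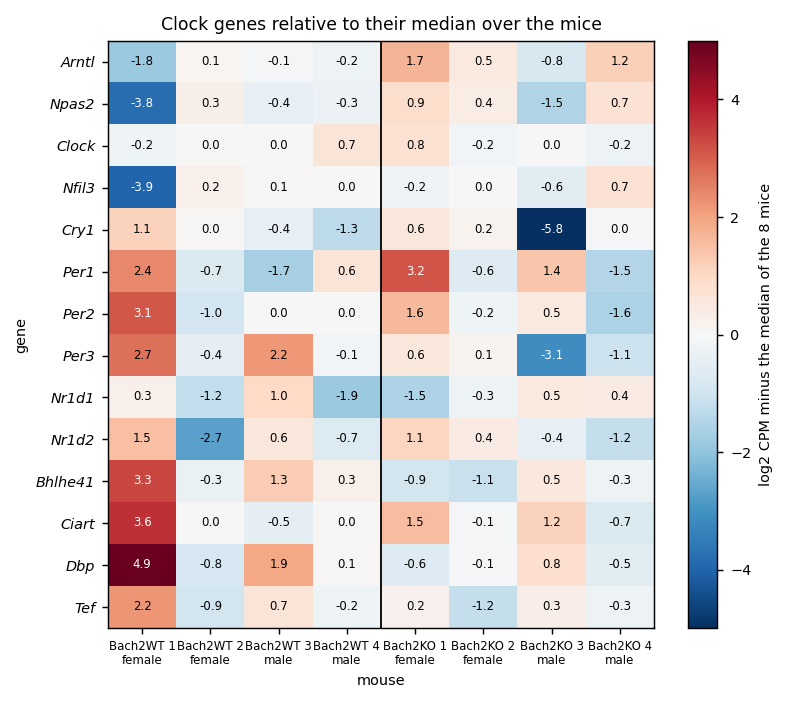
Log2 CPM of 14 clock genes (rows, from activators at the top to outputs at the bottom) in each mouse (columns) minus the gene's median over the 8 mice, in red above and in blue below. Bach2WT mouse 1 is high in Dbp (4.9), Ciart (3.6), Bhlhe41 (3.3) and Per2 (3.1) and low in Nfil3 (-3.9), Npas2 (-3.8) and Arntl (-1.8), whereas Bach2KO mouse 1 is high in Per1 (3.2) and in Arntl (1.7).

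Per length, levels were low throughout. The median FPKM over the 8 mice, a length-corrected unit, was 2.26 for Nr1d1, 0.302 for Per1, 0.283 for Tef, 0.269 for Cry1, 0.259 for Dbp, 0.231 for Nr1d2, 0.105 for Clock, 0.0479 for Per2, 0.0461 for Npas2 and 0.0132 for Per3. Nr1d1 exceeded Per1 in 7 of 8 mice, but the mean log2 difference of 1.89 was smaller than its SD of 1.99. No other pair of neighbours in this order differed by more than the SD of their difference over the mice either. Dbp ranged from 0.143 to 8.14 FPKM, so that its place in the order depends on the mouse.

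The other clock genes were read from a list of 23, of which 22 were tested. Of the activators, Arntl was the 1 of 4 tested with an unadjusted p under 0.05, as given above, and of the 6 repressors Bhlhe41 (DEC2), which competes for E-boxes, was the 1. Bhlhe41 measured 0.0865, 0.0724, 0.264 and 0.145 CPM in the Bach2KO mice and 1.94, 0.137, 0.453 and 0.216 CPM in the Bach2WT mice. It was highest in the same 3 mice as Dbp, and its log2 fold change was -2.28 (SE 0.81, unadjusted p = 0.0139, edgeR adjusted p = 0.593). None of the 8 kinases and ubiquitin ligases that set the stability of Per and Cry proteins, and none of the 4 other outputs (Hlf, Usp2, Noct, Wee1), had an unadjusted p under 0.05. None of the 22 passed the adjusted threshold in edgeR, and the shares of all tested genes at an unadjusted p under 0.05 were 3.9% higher and 3.56% lower. Arntl was no longer among those at an unadjusted p under 0.05 without Bach2KO mouse 1 or mouse 4, nor was Bhlhe41 without Bach2WT mouse 1. Median log2 fold changes were 0.43 for the activators, -0.11 for the repressors, 0.12 for the kinases and ligases and -0.37 for the outputs.

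Among all 12819 other tested genes, the expression of Bhlhe41 was the most like that of Dbp over the 8 mice (r = 0.95). Of the genes that were not among the 10, it was followed by Hdac4, a histone deacetylase (0.93), Immp2l (0.92), Strap (0.91) and Abhd5, an activator of fat breakdown (0.90), and Tef stood sixth. The most opposite were Trmt9b (-0.98), Hnrnpul1, Ndufv2, Gsr, which is glutathione reductase, and Zdhhc23 (each -0.95). Npas2 was the 11th from the opposite end (-0.93) and Nfil3, the repressor that competes with Dbp for D-boxes, the 29th (-0.90). Nfil3 measured 0.155 CPM in Bach2WT mouse 1 and 1.77 to 4.35 CPM in the other mice. These ranks describe 8 mice, of which Bach2WT mouse 1 stands far above the others in Dbp, and carry no test.

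Genes that answer to glucocorticoids, which can reset Per1 and Per2, moved with single mice. Of the 11 listed, all had a log2 fold change above 0, and 6 had an unadjusted p under 0.05 with higher levels in Bach2KO mice, against 3.9% of all tested genes, while none passed the adjusted threshold in edgeR. The median log2 fold change was 1.73. Bach2KO mouse 1, the mouse with the most Per1, was the highest of the 8 for 9 of the 11, and Fkbp5, a chaperone partner of the glucocorticoid receptor, measured 16.7 CPM there and 0.951 to 3.53 CPM elsewhere. Pdk4, which spares glucose in fasting, measured 9.34 CPM there and at most 0.230 CPM elsewhere, and Cdkn1a, a cell cycle inhibitor, 32.2 CPM against at most 6.17. Without that mouse, 2 of 10 tested had an unadjusted p under 0.05, against 3.08% of all genes tested, and the median was 0.12.

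The 3 mice with the most Per1 and Per2 were also the highest 3 for 5 of the 11 glucocorticoid-induced genes, among them Tsc22d3 and Klf9, and not for the other 6, with Fkbp5 lowest in Bach2KO mouse 3. Tsc22d3, which codes for the glucocorticoid-induced leucine zipper, measured 11.0 CPM in Bach2KO mouse 1, 3.72 in Bach2WT mouse 1, 3.46 in Bach2KO mouse 3 and at most 2.22 in the others. Immediate-early genes, which follow acute stimulation, had 6 of 7 tested at an unadjusted p under 0.05 with higher levels in Bach2KO mice, against 3.9% of all tested genes, and a median log2 fold change of 1.01. None of them passed the adjusted threshold in edgeR. Bach2KO mouse 3 was the highest for 4 of the 7, and Egr1 measured 13.8 CPM there and 0.0576 to 1.87 CPM elsewhere. Without that mouse, 2 of 8 tested had an unadjusted p under 0.05, against 3.44% of all genes tested. Of 8 temperature-responsive genes, Cirbp and Rbm3, a pair of cold-inducible RNA-binding proteins, were higher in Bach2KO mice at an unadjusted p under 0.05, with log2 fold changes of 1.17 (edgeR adjusted p = 0.384) and 1.07 (adjusted p = 0.663), against 3.9% of all tested genes. This count was 1 of 6 to 8 tested without Bach2KO mouse 1 or 2 or without Bach2WT mouse 2 or 4. Of all genes in those refits, 3.08% to 3.63% were higher at that p. The part of these signals in the clock gene levels was not tested.

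Markers of other cell types were set beside the clock genes in the same mice. Of the fat cell markers Adipoq, Plin1, Fabp4, Cfd and Lep, 3 were tested and enter a sum, namely Plin1, Fabp4 and Cfd. Their summed CPM was 16.99 in Bach2WT mouse 1, 11.4 in Bach2KO mouse 1 and 10.5 in Bach2WT mouse 2. It was 1.22 to 3.98 in the other 5 mice. Bach2WT mouse 1, with the highest Dbp, was thus highest in fat cell markers, and Bach2WT mouse 2, with the lowest Dbp, also lay above 5 of the 8 mice. Adipoq, which is not in the sum, measured 2.39 CPM in the first and 1.97 CPM in the second, and 0 in 4 of the other mice. Of the 3 tested, Plin1 was lower in Bach2KO mice at an unadjusted p under 0.05 (log2 fold change -4.57, edgeR adjusted p = 0.367). Across all tested genes 3.56% were lower at that p, and 1 of the 3 markers had a log2 fold change above 0. Stellate cell markers, all 6 tested, were also highest in Bach2WT mouse 1, at 66.5 CPM against 26.2 to 56.2 CPM, and the acinar markers were the lowest of the Bach2WT mice there, at 396400 CPM against 509650 to 538140 CPM. B cell markers, 2 of 4 tested, summed to 2.60 CPM in Bach2WT mouse 1 and to 0.0264 to 1.40 CPM in the others. Islet markers, all 7 tested, summed to 2317 CPM in Bach2WT mouse 4 and 2021 CPM in Bach2KO mouse 3 and to 184 to 644 CPM in the others, and these were neither the highest nor the lowest mice for Dbp. Bach2WT mouse 1 was not the highest for the tested duct, endothelial, macrophage or T cell markers, with sums of 106.8, 11.6, 12.2 and 0.81 CPM. The highest were 152 CPM for duct in Bach2WT mouse 4 and 20.9 CPM for endothelial in Bach2KO mouse 3. For macrophages it was 16.8 CPM in Bach2KO mouse 2, and for T cells 0.957 CPM in Bach2KO mouse 1. The part of other cell types in the clock gene levels was not tested.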

How the data were processed

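Pancreatic RNA of 8 mice was sequenced as paired-end reads after mRNA library preparation. Per the labels, the submitters' processing notes name fastp, HISAT2 2.2.1, featureCounts 2.0.6 and the build mm39. The authors deposited whole-number counts per gene and library, with no normalization. They also deposited a signal in which the counts of a library are scaled by its size factor, and FPKM values that further correct this signal for gene length. The deposited fold change and p-value columns hold the authors' own comparison and were not used.

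The members and gene lists were chosen with earlier results of these data known. Counts of 8 mice (4 per genotype) were fitted in edgeR 4.0.16 (R 4.3.3; TMM, filterByExpr, quasi-likelihood test), and p-values were Benjamini-Hochberg adjusted over 12820 genes with a threshold of 0.05. CPM used TMM library sizes, and log2 CPM a prior count of 2. Standard errors (SE) were taken from the fold change and its F statistic. Single genes were also compared by two-sided exact permutation tests, as were correlations, in Python 3.11.15. Scripts were tested on simulated data. Nothing in the sources used here says whether same-numbered mice share a litter or day. The edgeR p-values weigh a difference against the spread between these mice, and the permutation p-values come from reassigning values over them. Named were the 10 genes, Arntl, genes that overlap them on the genome, other listed genes past an unadjusted p of 0.05 (up to 3 per list), and the 5 genes most like and most unlike Dbp. Nfil3, Ciart, Tsc22d3 and Klf9 were named after their values were seen. A further listed gene is not reported here by name. Alternatives were DESeq2 1.42.0, limma 3.58.1 on log2(FPKM + 0.1) and log2(FPKM + 1), RLE size factors, library sizes without digestive enzymes, other filters, sex, a replicate block, counts divided by 2, and each mouse left out.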

Additional observations from a re-analysis of the deposited data

Results flagged for a closer look

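Cry1 in Bach2KO mouse 3 lay apart from the other Bach2KO mice. Its log2 CPM, from a count of 0, had a gap to the next mouse of 0.902 of the group's whole range, above the 95% critical value of Dixon's test for 4 samples. Chance flags about 1 in 20 groups, and 20 gene and genotype groups were checked. The same library held 75 genes at 0 that had at least 10 counts in every other mouse, and its Per3 was at 0 as well.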

How the results depend on the processing

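The count of genes past the adjusted threshold, 1 in the fit reported, was 75 with DESeq2, 73 without a filter on low counts, and 0 with at least 10 counts in every mouse, with sex as a covariate, with the replicate block, with counts divided by 2, with limma on log2(FPKM + 1) and with each mouse left out (0 to 0). Of the 10 clock genes, 1 passed without a filter on low counts (Dbp, adjusted p = 0.0143) and 0 in the other alternatives. The log2 fold change of Clock was -0.0206 with DESeq2, -0.0230 with RLE size factors, -0.0177 with the replicate block, -0.0187 with limma on log2(FPKM + 0.1) and -0.0031 on log2(FPKM + 1). That of Nr1d1 was 0.202 with the replicate block and 0.174 and 0.0779 with the limma settings, and that of Nr1d2 was 0.126 with the block and 0.0468 with limma on log2(FPKM + 0.1). Dbp was -1.41 with the replicate block, and -1.47 and -0.85 with limma. With each mouse left out, log2 fold changes ranged from -0.71 to 1.97 for Per1, -1.78 to 0.81 for Per2, -0.65 to 0.31 for Cry1, -0.27 to 0.22 for Clock, -0.32 to 0.61 for Nr1d1 and -0.62 to 0.63 for Nr1d2. None of these passed the adjusted threshold.

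Deviations of same-numbered mice correlated at 0.212, -0.0344, -0.0409 and -0.0543. Of the 4 Bach2KO mice only mouse 1 correlated best with the Bach2WT mouse of its own number. These values cannot tell whether same-numbered mice share a litter or day. The correlation of Dbp with Arntl was -0.703 on log2(FPKM + 0.1), where it did not pass the adjustment (adjusted p = 0.101, exact permutation). Centred within genotype it was -0.0017 for Cry1 and 0.878 for Tef. Without the 2 mice farthest from the median of Dbp it was -0.706 for Per3, -0.890 for Cry1, -0.893 for Npas2, 0.383 for Tef and -0.724 for Arntl, and without Bach2KO mouse 3 it was 0.887 for Per3 (adjusted p = 0.0387, exact permutation). The cause of these shifts was not tested. The lists with single high mice were refitted without each mouse, a check chosen after seeing the data. With all mice, 6 of 11 glucocorticoid-induced genes were higher at an unadjusted p under 0.05. The count was 2 of 10 without Bach2KO mouse 1 and 3 of 11 without Bach2WT mouse 3 or 4. Immediate-early genes went from 6 of 7 to 2 of 8 without Bach2KO mouse 3 and 3 of 8 without Bach2WT mouse 2 or 4. Of all genes in those refits, 3.08% to 3.63% were higher at that p. Over all genes the median log2 fold change was at most 0.123, without a filter on low counts. Low counts limit Per3 and Npas2, which had at most 92 and 72 counts in a mouse. The spread of each gene without each mouse and the single value without Cry1 were also added after seeing the data.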
